A study of Mus musculus with 12 samples.

Results

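The miR-17-92 cluster and its paralogs, the miR-106a-363 and miR-106b-25 clusters, were followed in mHypoE-46 cells. This is an immortalised neuronal line of embryonic mouse hypothalamus in which the appetite-promoting peptides NPY and AgRP are expressed. The members are the 9 probes for mature miRNAs of these clusters on a NanoString nCounter panel, out of 566 mouse miRNA probes, and they were taken by name. Of the 9, a pair each read 2 miRNAs together (mmu-miR-106a+mmu-miR-17 and mmu-miR-20a+mmu-miR-20b), and the others read 1 miRNA each. Cells received 100 nM insulin or vehicle, which was phosphate buffered saline, and were harvested 24 h or 4 h later. The 4 groups were insulin at 24 h, vehicle at 24 h, insulin at 4 h and vehicle at 4 h, with 3 replicates each from independently repeated experiments and 12 libraries in all. The medium of every group was high glucose DMEM with fetal bovine serum and antibiotics. The submitters describe 24 h of insulin as the insulin-resistant state of these cells and 4 h as the state before it. All cells come from 1 immortalised line, so the replicates carry no variation between animals.

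Each cluster is transcribed as 1 primary RNA that is cut into several hairpins, and each hairpin yields a mature miRNA that guides repression of mRNAs matching its seed. MYC and E2F factors activate miR-17-92, and the cluster is best known for promoting proliferation and survival, including that of neural progenitors in the developing mouse brain. The miR-17 family represses cell cycle inhibitors such as Cdkn1a, the miR-18 family acts on the TGF-beta pathway, the miR-19 family is needed for the cluster's growth-promoting activity in mouse lymphoma, and the miR-92 family is known from blood vessels.

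The mature sequences are shown because 2 of the probes cannot separate their targets and because members are grouped below by seed. They are RefSeq's for GRCm38.p6, written 5′ to 3′ with the seed, bases 2 to 8, in capitals. The panel names carry no arm, and the arm shown is the one that carries the family's seed.
mmu-miR-17-5p: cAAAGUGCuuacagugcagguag
mmu-miR-106a-5p: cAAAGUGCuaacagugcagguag
mmu-miR-20a-5p: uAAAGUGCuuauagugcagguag
mmu-miR-20b-5p: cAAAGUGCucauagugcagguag
mmu-miR-93-5p: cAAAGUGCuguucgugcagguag
mmu-miR-106b-5p: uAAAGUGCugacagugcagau
mmu-miR-18a-5p: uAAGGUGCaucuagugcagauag
mmu-miR-19a-3p: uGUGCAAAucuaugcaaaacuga
mmu-miR-19b-3p: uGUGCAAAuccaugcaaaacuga
mmu-miR-92a-3p: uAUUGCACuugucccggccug
mmu-miR-25-3p: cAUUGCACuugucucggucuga

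The 11 mature miRNAs fall into 4 seed groups. The seed AAAGUGC is shared by 6 of them, miR-17, miR-106a, miR-20a, miR-20b, miR-93 and miR-106b, and by 7 of the 1679 mature names in the RefSeq table. GUGCAAA belongs to miR-19a and miR-19b alone in that table, AUUGCAC is carried by miR-92a and miR-25, and AAGGUGC by miR-18a. Substitutions are written as the first miRNA's base, its position from 1 at the 5′ end, and the second miRNA's base. The jointly read miR-17 and miR-106a differ only by U10A, and miR-20a and miR-20b by U1C and U10C. The separately read miR-19a and miR-19b differ only by U11C. Also read by separate probes, miR-17 and miR-20a differ only by C1U and C12U, and miR-17 and miR-93 at 4 of 23 positions. Between miR-92a and miR-25 the changes are U1C, C14U and C18U over the 21 positions compared. Whether probes for near-identical miRNAs read one another was not tested.

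In GRCm38.p6, RefSeq places the 6 hairpins of miR-17-92 within 836 bases at chr14:115043671-115044506 on the plus strand. The 6 hairpins of miR-106a-363 lie within 875 bases at chrX:52741693-52742567 on the minus strand. The 3 hairpins of miR-106b-25 lie within 498 bases at chr5:138165321-138165818 on the minus strand, inside the span of Mcm7, a gene for a replicative helicase subunit. Mature miR-19b and miR-92a are each encoded in both of the first clusters, so their probes cannot assign a signal to either locus. The files name no build of their own.

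Mouse miRNA counts per library ranged over 142158 to 379809. A probe counted as above background when it exceeded its library's mean of 8 negative controls plus 2 SD, a threshold of 38.9 to 124 counts. A probe entered the tests when this held in at least 3 of 12 libraries, which 195 mouse probes did, 34.5% of the panel. The 24 h libraries ran in lanes 7 to 12 and the 4 h libraries in lanes 1 to 6, so time and lane block cannot be told apart. Of the neuronal markers, miR-9 was above background in 12 of 12 libraries (879 to 1916 counts), whereas miR-124 was above it in 0 of 12 (17 to 95 counts). In RNA from whole cultures, a lower share of cells with a miRNA and less of it per cell cannot be told apart.

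The probes other than miR-18a and miR-92a were well above background in every library, while miR-18a was close to it, and miR-92a was at it. The probe for miR-106a and miR-17 had 1397 to 8289 counts, that for miR-20a and miR-20b 950 to 4342, and that for miR-25 1545 to 3203. For miR-18a, 71 to 285 counts placed 11 of 12 libraries above the threshold, the exception being replicate 1 of vehicle at 4 h. For miR-92a, 19 to 50 counts were above the threshold in 0 of 12 libraries and below the mean of the negative controls in 11 of 12. The 8 other members passed the count filter and were tested, and miR-92a was not. The plot of counts relative to the threshold places miR-92a with miR-18b and miR-363, the other panel probes of miR-106a-363, below every library's threshold.

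**Figure D1:**
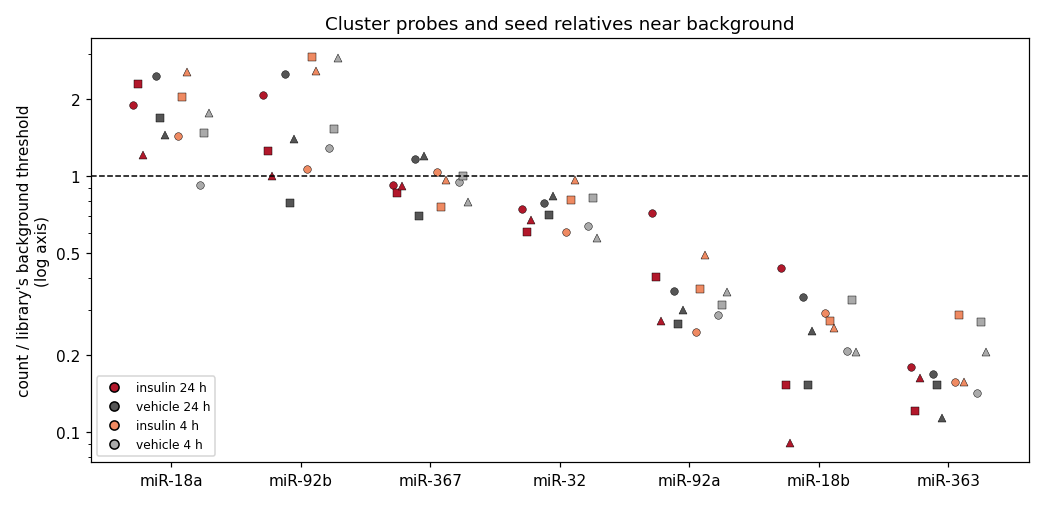
Counts of 7 probes of these clusters or of a shared seed, divided by each library's background threshold on a log axis, with 1 point per library (circle, square and triangle for replicates 1, 2 and 3) coloured by group and a dashed line at 1. All 12 libraries lie below the line for miR-32, miR-92a, miR-18b and miR-363, and 11 of 12 lie above it for miR-18a.

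Levels are given as TMM-scaled CPM, a depth-scaled count, and are compared between libraries for 1 probe at a time. The probe mmu-miR-106a+mmu-miR-17, for miR-17 and its same-seed relative from miR-106a-363, read 24106, 29399 and 20887 CPM in replicates 1, 2 and 3 of insulin at 24 h and 18723, 22905 and 21891 CPM in vehicle at 24 h. It read 10174, 13826 and 17308 CPM in insulin at 4 h and 8840, 11769 and 15862 CPM in vehicle at 4 h. All 24 h libraries were above all 4 h libraries, while insulin and vehicle overlapped at each time. Group means were 24797 ± 4298 CPM for insulin at 24 h, 21173 ± 2181 CPM for vehicle at 24 h, 13769 ± 3568 CPM for insulin at 4 h and 12157 ± 3527 CPM for vehicle at 4 h (SD, n = 3 each).

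The probe mmu-miR-20a+mmu-miR-20b, for same-seed relatives from miR-17-92 and miR-106a-363, read 8392, 15400 and 11228 CPM in insulin at 24 h and 7280, 9572 and 7869 CPM in vehicle at 24 h. It read 5846, 5890 and 5968 CPM in insulin at 4 h and 6461, 6092 and 5550 CPM in vehicle at 4 h. The 24 h libraries again all lay above the 4 h libraries, and they were also more spread, with replicate 2 of insulin at 24 h far above the rest. The coefficient of variation was 30.2% for insulin at 24 h, 14.4% for vehicle at 24 h, 1.05% for insulin at 4 h and 7.59% for vehicle at 4 h.

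In the miR-106b-25 cluster, miR-93 and miR-106b carry the miR-17 seed. The mmu-miR-93 probe read 3365, 3933 and 2758 CPM in insulin at 24 h and 2812, 3035 and 3181 CPM in vehicle at 24 h. It read 1672, 2183 and 3133 CPM in insulin at 4 h and 1677, 1896 and 2614 CPM in vehicle at 4 h. Its vehicle groups did not overlap between the times, whereas replicate 3 of insulin at 4 h lay among the 24 h libraries.

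For mmu-miR-106b the values were 5494, 5302 and 3796 CPM in insulin at 24 h and 4583, 4521 and 4533 CPM in vehicle at 24 h. They were 3150, 4312 and 5706 CPM in insulin at 4 h and 1759, 2844 and 5412 CPM in vehicle at 4 h. The 4 h groups spanned the whole range of this probe, with replicate 3 high and replicate 1 low in both treatments, and no pair of groups was separate in time. A rise from replicate 1 to replicate 3 in both 4 h groups was also seen for miR-106a and miR-17, miR-18a, miR-19a and miR-93. For miR-106a and miR-17 it ran from 10174 to 17308 CPM in insulin and from 8840 to 15862 CPM in vehicle. Lane number rose with replicate number in both 4 h groups, so replicate and lane cannot be told apart there. How often all probes rose in this way was not counted. The coefficient of variation was 0.728% in vehicle at 24 h, against 56.2% in vehicle at 4 h.

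The miR-19 pair shares a seed, and its 2 members gave different patterns across the groups. The mmu-miR-19a probe read 13603, 13081 and 10153 CPM in insulin at 24 h and 11577, 11339 and 10734 CPM in vehicle at 24 h, against 7233, 9322 and 10636 CPM in insulin at 4 h and 6568, 7370 and 10358 CPM in vehicle at 4 h. Most 24 h libraries were higher, with an overlap in insulin. The mmu-miR-19b probe read 6033, 5980 and 4207 CPM in insulin at 24 h and 5022, 4551 and 4773 CPM in vehicle at 24 h, against 6275, 4705 and 5718 CPM in insulin at 4 h and 3658, 4630 and 5017 CPM in vehicle at 4 h. All 4 groups of miR-19b overlapped with their neighbours in the order of levels.

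The mmu-miR-18a probe read 654, 1011 and 614 CPM in insulin at 24 h and 797, 835 and 625 CPM in vehicle at 24 h, against 639, 659 and 776 CPM in insulin at 4 h and 449, 572 and 615 CPM in vehicle at 4 h. Vehicle at 4 h was the lowest group by mean, below every library of insulin at 4 h and of vehicle at 24 h but overlapping insulin at 24 h. The mmu-miR-25 probe, which carries the miR-92 seed in the miR-106b-25 cluster, was at 13647, 11360 and 8441 CPM in insulin at 24 h and 12003, 10210 and 10261 CPM in vehicle at 24 h, against 9919, 13256 and 12623 CPM in insulin at 4 h and 14016, 11717 and 12648 CPM in vehicle at 4 h. No group of miR-25 stood apart. For mmu-miR-92a, CPM values of 110 to 247 are background readings and carry no order.

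**Figure D2:**
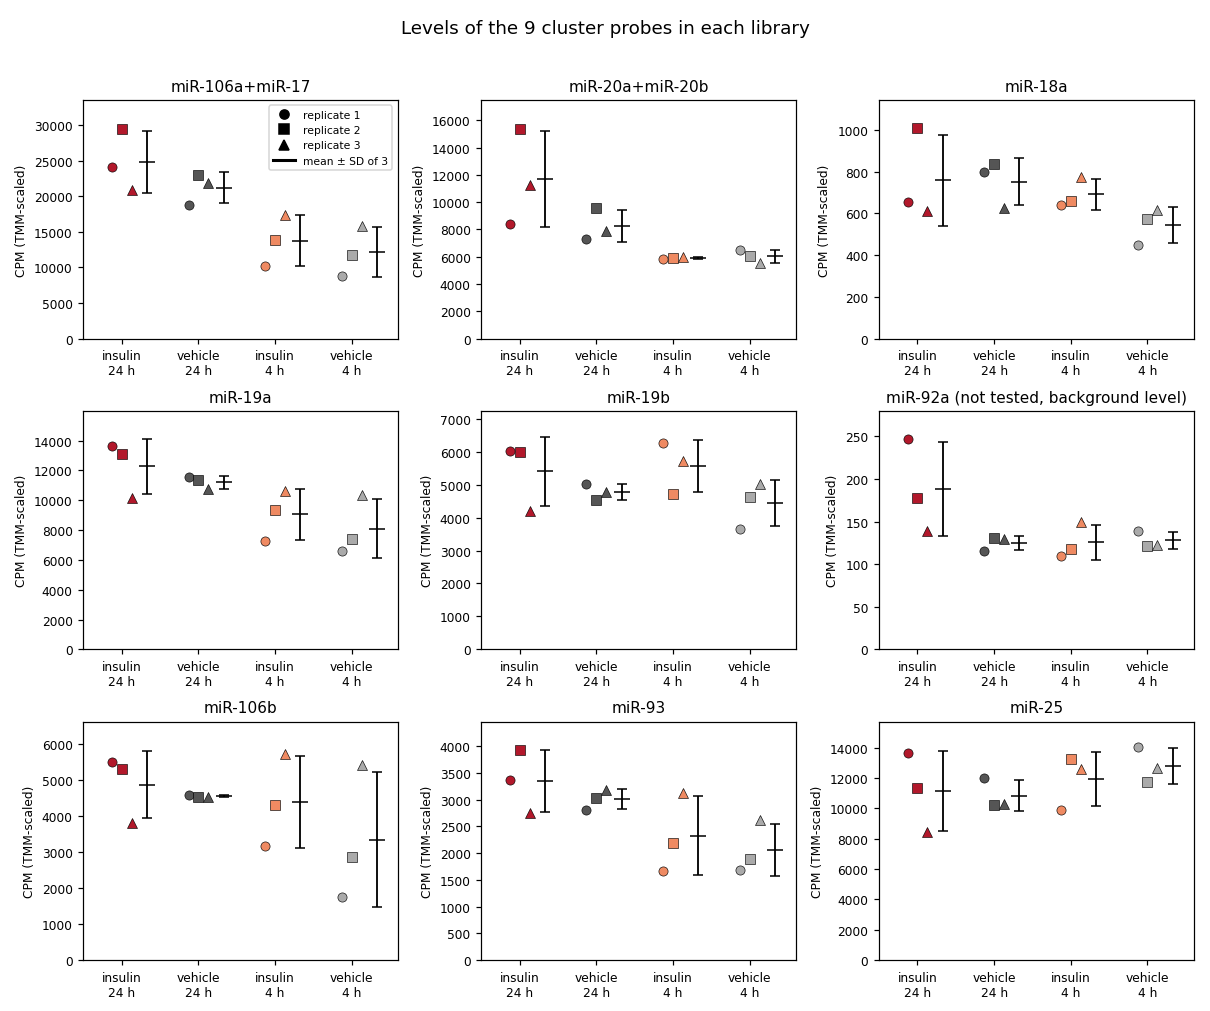
CPM of the 9 probes in each library on linear axes from 0, with 1 point per library and the mean ± SD of 3 beside each group. For miR-106a and miR-17, 24 h libraries lie at 18723 CPM or more and 4 h libraries at 17308 CPM or less, whereas for miR-25 the groups overlap.

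By mean level, insulin at 24 h came first and vehicle at 24 h second for 6 of the 8 tested probes. The exceptions were miR-19b, highest in insulin at 4 h, and miR-25, highest in vehicle at 4 h. Insulin and vehicle at 24 h overlapped for each of the 8. The boundary between vehicle at 24 h and the next group in the order was free of overlap for miR-106a and miR-17, for miR-20a and miR-20b, and for miR-19a. The 9 probes together took 6.002%, 6.36% and 6.09% of mouse miRNA counts in insulin at 24 h and 5.73%, 5.93% and 5.73% in vehicle at 24 h. They took 5.25%, 5.25% and 5.28% in insulin at 4 h and 4.84%, 5.18% and 5.32% in vehicle at 4 h. This share, which does not depend on scaling between libraries, was higher in every 24 h library than in every 4 h library. It is weighted by the most counted probes and does not describe each member. The probe for miR-106a and miR-17 gave 8289 of 24147 member counts in replicate 2 of insulin at 24 h. In replicate 1 of vehicle at 4 h it gave 1397 of 6885. How often shares of other probe sets separate the times was not counted.

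At 24 h, the time the study ties to insulin resistance, no member passed the test between insulin and vehicle. Counts of the 195 probes were compared by edgeR's quasi-likelihood F test, two-sided, with Benjamini-Hochberg adjustment over all of them, and an adjusted p under 0.05 is called a call. Of the 8 members, 0 were called, as were 0% of all probes, while 1 member and 4 probes in all (2.05%) had an unadjusted p under 0.05. DESeq2 also called 0 members. All 8 log2 changes were above 0, from 0.03 to 0.50 with a median of 0.14, against 65.1% of all probes above 0 and a median of 0.06. With scaling to 4 housekeeping mRNAs, which shifts the median of all probes by -0.39, only 1 of the 8 was above 0. Above 0 were 6 with DESeq2 size factors, 100-probe scaling or DESeq2, and 5 with positive control scaling or limma on the deposited signals. After background subtraction 7 were, and with the replicate block all 8.

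The member with the unadjusted p under 0.05 was the probe for miR-20a and miR-20b. Its log2 change was 0.50 (SE 0.21, 95% confidence interval 0.05 to 0.96, unadjusted p = 0.0319, adjusted p = 0.962 by edgeR). The groups overlapped, as they did for each member (4.1% of all probes were separate with insulin higher), since replicate 1 of insulin lay below replicate 2 of vehicle. Without replicate 2 of insulin at 24 h the change was 0.25, and with housekeeping scaling it was 0.07. For miR-106a and miR-17 it was 0.23 (SE 0.25), and for miR-19b 0.18 (SE 0.20). In this fit the intervals of all 8 members excluded a 2-fold difference in either direction, though narrowly for miR-20a and miR-20b. The value of that probe reached 0.69 in the repeats that leave out 1 library, and intervals of those repeats are not given here.

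At 4 h, too, 0 of 8 members and 0% of all probes were called, and 0 members and 3 probes (1.54%) had an unadjusted p under 0.05. DESeq2 called 0 members. Of the 8 log2 changes 6 were above 0, against 50.8% of all probes, and they ran over -0.10 to 0.39 with a median of 0.18, against 0.01 for all probes. The values were 0.39 (SE 0.32) for miR-106b, 0.33 (SE 0.21) for miR-18a, 0.33 (SE 0.20) for miR-19b and 0.18 (SE 0.25) for miR-106a and miR-17. For miR-20a and miR-20b the value was -0.03 (SE 0.21). The miR-18a probe was the 1 member whose insulin libraries all lay above its vehicle libraries, as 2.56% of all tested probes did. That separation rests on counts near background, and replicate 1 of vehicle was under the threshold. The miR-106b value turned on single libraries: it was 0.93 without replicate 3 of vehicle at 4 h and 0.11 without replicate 1 of that group.

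The response to insulin was compared between the times in the same fit. Of the 8 members, 0 were called for a difference between the 24 h and the 4 h response, as were 0% of all probes, and 0 of the 195 had an unadjusted p under 0.05. DESeq2 called 0 members. For miR-20a and miR-20b the 24 h response minus the 4 h response was 0.54 on the log2 scale (SE 0.30, adjusted p = 0.991 by edgeR). The other 7 members lay between -0.30 and 0.14, and 3 of 8 were above 0, against 59% of all probes. Averaged over both times, insulin minus vehicle gave 0 calls among the 8 members and among the 195 probes (0%), with members at -0.03 to 0.25, of which 7 of 8 were above 0, against 57.9% of all probes.

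Between 24 h and 4 h, 3 of the 4 probes with the miR-17 seed were called higher at 24 h when averaged over both treatments. The other, miR-106b, also had a value above 0 but was not called. Averaged over both treatments, 3 of the 8 tested members were called and all 3 were higher at 24 h, while 15.4% of all probes were called, 9.74% as higher and 5.64% as lower. The split of calls depended on scaling: 19 higher and 11 lower with TMM, 16 and 16 with 100-probe scaling, 4 and 13 with positive control scaling, and 0 and 17 with housekeeping scaling. The probe for miR-106a and miR-17 was higher by 0.82 on the log2 scale (SE 0.18, adjusted p = 0.00726 by edgeR), a 1.77-fold difference. The probe for miR-20a and miR-20b was higher by 0.72 (SE 0.15, adjusted p = 0.00726 by edgeR), and miR-93 by 0.54 (SE 0.17, adjusted p = 0.0409 by edgeR). These 3 probes carry the AAAGUGC seed, and their miRNAs are encoded across the 3 clusters. The first 2 were separate between all 6 libraries at 24 h and all 6 at 4 h, a separation found with the 24 h libraries higher for 3.08% of all probes. With the 24 h libraries lower, 5.13% of all probes were separate, and 0 members.

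The remaining 5 members did not pass this test averaged over treatments, although some did under other settings. The log2 difference was 0.45 for miR-19a (SE 0.15, adjusted p = 0.0586 by edgeR), 0.31 for miR-18a (SE 0.14) and 0.30 for miR-106b (SE 0.23), the same-seed neighbour of miR-93. It was 0.03 for miR-19b (SE 0.14) and -0.17 for miR-25 (SE 0.15). For miR-19b and miR-25 the 95% intervals reached 0.33 and 0.14 at most, below the changes fitted for the 3 called probes. The interval of miR-93 was 0.18 to 0.89 and overlapped that of miR-19b. Differences between members were not tested. Over 10 other settings, miR-19a was called higher in 4, with adjusted p down to 0.0134, and over 12 repeats without 1 library in 3: those without replicate 3 of insulin at 4 h, of vehicle at 4 h or of insulin at 24 h. In 1 setting, the filter at a mean count of 100, miR-25 was called lower (adjusted p = 0.0458 by edgeR). Over the 8 members the median was 0.38, against 0.04 over all probes, of which 56.4% were above 0 beside 7 of the 8 members.

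In insulin, 1 of 8 members was called between 24 h and 4 h, against 3.59% of all probes (3 higher and 4 lower, but 7 and 8 with 100-probe scaling, 0 and 2 with positive control scaling, and 0 and 16 with housekeeping scaling). It was the probe for miR-20a and miR-20b, at 0.99 (SE 0.21, adjusted p = 0.0351 by edgeR). For miR-106a and miR-17 the difference was 0.85 (SE 0.25, adjusted p = 0.0752 by edgeR), and these 2 probes were the members with separate insulin groups, as 10.3% of all probes were with 24 h higher. With 24 h lower, 8.72% of all probes and 0 members were separate. Of the 8 values, 6 were above 0, against 58.5% of all probes. The remaining values were 0.53 for miR-93, 0.44 for miR-19a, 0.15 for miR-18a, 0.15 for miR-106b, -0.04 for miR-19b and -0.10 for miR-25. The call for miR-20a and miR-20b was lost without any 1 of 6 libraries: replicates 2 or 3 of insulin at 24 h, replicates 2 or 3 of vehicle at 24 h, and replicates 1 or 2 of insulin at 4 h. Its value over the 12 repeats that leave out 1 library each was 0.73 to 1.17, with adjusted p of 0.00676 to 0.222. The call was also lost with housekeeping or positive control scaling, with no filter on low counts, with limma on the deposited signals and after background subtraction.

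In vehicle, 0 of 8 members and 0% of all probes were called by edgeR, although 4 members and 31 probes (15.9%) had an unadjusted p under 0.05. DESeq2 called 15 of the 89 probes for which it gave an adjusted p (16.9%), among them 1 member. The value for miR-106a and miR-17 was 0.80 (SE 0.25, adjusted p = 0.151 by edgeR), beside 0.85 in insulin. The values were 0.54 for miR-93, 0.47 for miR-19a, 0.46 for miR-18a, 0.45 for miR-20a and miR-20b, 0.44 for miR-106b, 0.11 for miR-19b and -0.24 for miR-25. The miR-106b value was 0.98, and called, without replicate 3 of vehicle at 4 h (adjusted p = 0.0443 by edgeR), against 0.10 without replicate 1 of that group. Without that replicate 3, miR-106a and miR-17 were also called, at 1.04 (adjusted p = 0.0289 by edgeR). Vehicle libraries at 24 h all lay above those at 4 h for 5 members, the probes for miR-106a and miR-17, miR-20a and miR-20b, miR-18a, miR-19a and miR-93. The same was true of 11.8% of all tested probes. Of the 8 values, 7 were above 0, against 55.4% of all probes.

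**Figure D3:**
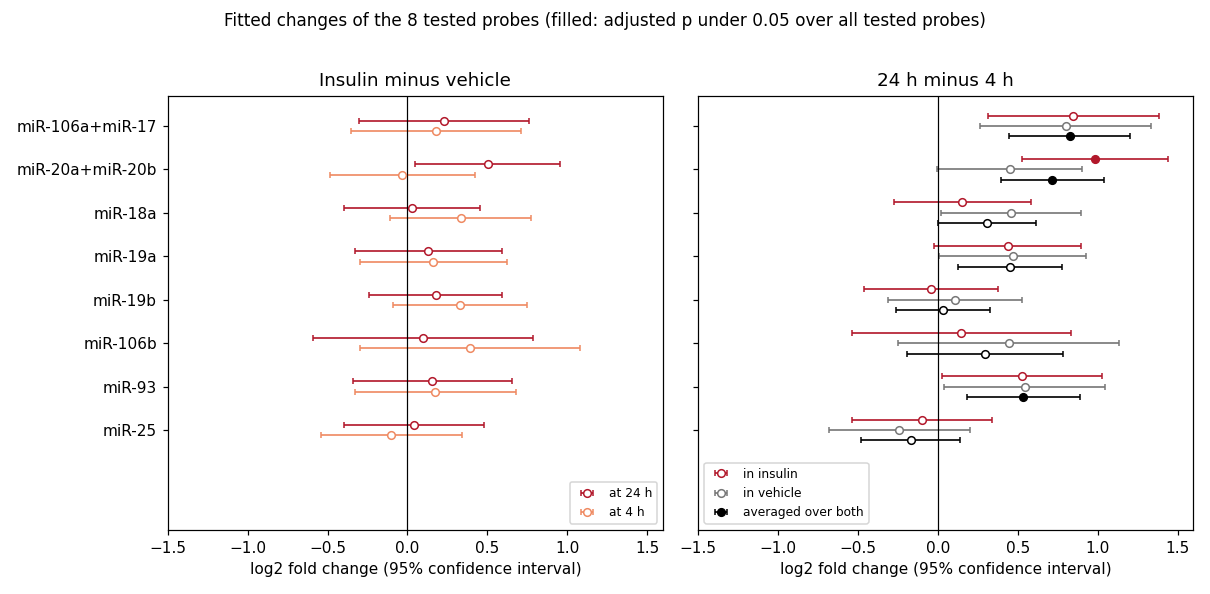
Fitted log2 fold changes of the 8 tested probes with 95% confidence intervals, insulin minus vehicle on the left and 24 h minus 4 h on the right, with filled points for an adjusted p under 0.05. Filled points are miR-20a with miR-20b in insulin (0.99) and, averaged over both treatments, miR-106a with miR-17 (0.82), miR-20a with miR-20b (0.72) and miR-93 (0.54).

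Averaged over treatments, the probes for miR-106a and miR-17 and for miR-20a and miR-20b were called in 12 of 12 repeats that leave out 1 library. The call for miR-93 held in 4 of them, those without replicate 3 of insulin at 4 h, replicate 3 of vehicle at 4 h, or replicate 1 or 3 of insulin at 24 h. It was lost without any 1 of the other 8 libraries, with adjusted p of up to 0.132. The value for miR-106b was 0.56, and called, without replicate 3 of vehicle at 4 h (adjusted p = 0.0382 by edgeR), against 0.08 without replicate 1 of that group. With housekeeping scaling 0 members were called: the median of all probes shifted by -0.37, and the values were 0.46 for miR-106a and miR-17, 0.33 for miR-20a and miR-20b and 0.18 for miR-93. Relative to the median of all probes under that scaling they were 0.79, 0.66 and 0.51 in the same order. With positive control scaling, which shifted that median by -0.12, the call for miR-20a and miR-20b was lost (adjusted p = 0.0585 by edgeR), as was that for miR-93 (adjusted p = 0.228 by edgeR). With no filter on low counts, the call for miR-106a and miR-17 was lost (adjusted p = 0.0718 by edgeR), as was that for miR-93 (adjusted p = 0.254 by edgeR). The miR-93 call was also lost after background subtraction and without the 2 smallest libraries. The raw geometric mean of the housekeeping mRNAs was 2331 to 9643 counts at 24 h and 2962 to 3965 counts at 4 h.

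Some markers of other cell types also differed between the times. Of the blood, liver and muscle list, 3 of 9 were tested and miR-223, a myeloid miRNA, was called lower at 24 h (-2.78, SE 0.51). Counts of miR-223 were 25 to 832 and above the threshold in 8 of 12 libraries, so its lowest readings are at background and the size of the change is uncertain. The other 2, the muscle miRNAs miR-133a and miR-206, had values above 0 (0.29 and 0.37) and were not called, and the median of the 3 was 0.29. The summed level of that list was 2075 to 2270.2 CPM in insulin at 24 h, 2011 to 2502 CPM in vehicle at 24 h, 2865 to 4707 CPM in insulin at 4 h and 2683 to 6509 CPM in vehicle at 4 h. Of the glial and mesenchymal list, 4 of 8 were tested, and miR-145 (-0.53) and miR-140 (-0.46) were called lower, as 5.64% of all probes were. The other 2, miR-338-5p at 0.33 and miR-143 at -0.07, were not called. Its summed level was 8801 to 11218 CPM in insulin at 24 h, 9891 to 10457 CPM in vehicle at 24 h, 11951 to 14420 CPM in insulin at 4 h and 11283 to 13873 CPM in vehicle at 4 h. Both sums include the untested probes of the list, which were above the threshold in 0 of 12 libraries, and no background was subtracted. Of the neuronal list 7 of 12 and of the epithelial list 2 of 6 were tested, with 0 called in either. The part of these lists in the time difference of the members was not tested.

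Ratios of 2 probes within 1 library do not depend on the scaling, and are compared here between libraries only, since probes differ in efficiency. How often ratios of other tested probes separate the times was not counted. The ratio of miR-106a and miR-17 to miR-25 was 1.77, 2.59 and 2.47 in insulin at 24 h and 1.56, 2.24 and 2.13 in vehicle at 24 h, against 1.03, 1.04 and 1.37 in insulin at 4 h and 0.631, 1.00 and 1.25 in vehicle at 4 h. The 24 h and 4 h libraries did not overlap, and the mean log2 ratio was 1.03 higher at 24 h. For miR-20a and miR-20b over miR-25 the ratio was 0.615, 1.36 and 1.33 in insulin at 24 h and 0.607, 0.938 and 0.767 in vehicle at 24 h, against 0.589, 0.444 and 0.473 in insulin at 4 h and 0.461, 0.520 and 0.439 in vehicle at 4 h. These did not overlap between times either, by a narrow margin at replicate 1, with a mean difference of 0.87. For miR-93 over miR-25, both from the 1 primary transcript of the miR-106b-25 cluster, the log2 ratio was 0.74 higher at 24 h with overlapping libraries.

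Within the miR-19 pair, the ratio of miR-19b to miR-19a was 0.443, 0.457 and 0.414 in insulin at 24 h and 0.434, 0.401 and 0.445 in vehicle at 24 h. It was 0.867, 0.505 and 0.538 in insulin at 4 h and 0.557, 0.628 and 0.484 in vehicle at 4 h. Every 24 h library was below every 4 h library, with a mean log2 difference of -0.44, and the 24 h values were tightly grouped. Within the miR-17-92 products read against miR-106a and miR-17, the log2 ratio differed between 24 h and 4 h by -0.57 for miR-18a, -0.38 for miR-19a and -0.16 for miR-20a and miR-20b, each with overlapping libraries.

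Summed by locus, the probes of miR-17-92 and miR-106a-363 over those of miR-106b-25 had a log2 ratio 0.57 higher at 24 h. Summed by seed, AAAGUGC was 0.40 higher at 24 h relative to GUGCAAA and 0.89 higher relative to AUUGCAC. In these 3 sums the 24 h and 4 h libraries did not overlap. The sums are not independent of the single probes. The AAAGUGC sum includes the probes called between the times, and the AUUGCAC sum is miR-25 with background readings of miR-92a. How often sums of other probes separate the times was not counted. After each library's mean negative control count was subtracted, the differences were 0.59, 0.41 and 0.92 in the same order.

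**Figure D4:**
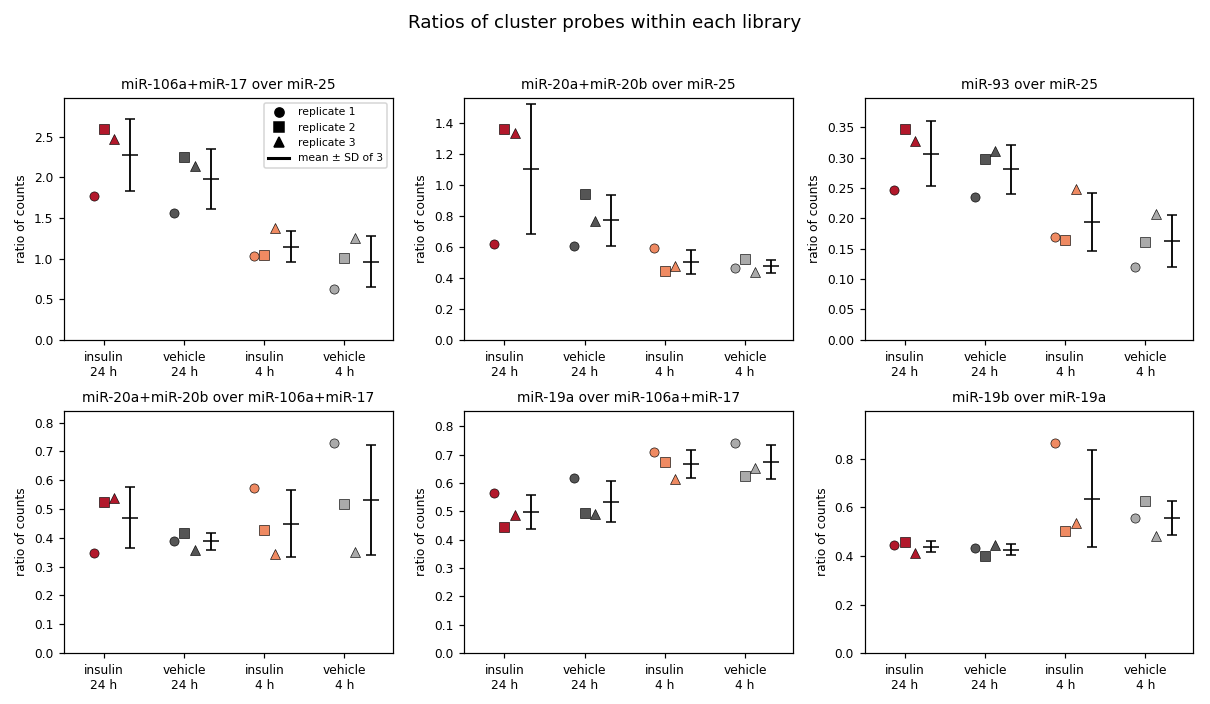
Ratios of counts of 2 probes within each library on linear axes from 0, with 1 point per library and the mean ± SD of 3 beside each group. The 24 h libraries lie above the 4 h libraries for miR-106a with miR-17 over miR-25 and for miR-20a with miR-20b over miR-25, and below them for miR-19b over miR-19a.

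Members varied together to different degrees over the 12 libraries, which share depth and scaling. Pearson's r of log2 CPM was highest between miR-93 and the probe for miR-106a and miR-17, products of separate loci with a common seed, at 0.97. It was 0.96 between miR-19a and miR-93 and 0.95 between miR-19a and the probe for miR-106a and miR-17, pairs with different seeds. Between the same-seed probes for miR-20a and miR-20b and for miR-106b it was 0.26. With its neighbouring hairpins, miR-93 had -0.11 for miR-25 and 0.83 for miR-106b. Against the mean of the other members, r was 0.94 for miR-19a, 0.91 for miR-93, 0.88 for miR-106a and miR-17, 0.83 for miR-106b and 0.79 for miR-18a. It was 0.47 for miR-19b, 0.47 for miR-20a and miR-20b, and -0.18 for miR-25. The tested probes outside the clusters most like the mean member profile were miR-222 (r = 0.98), let-7e (0.94), miR-365 (0.94), miR-23a (0.92) and miR-16 (0.91), and the least like were miR-421 (-0.73), miR-33 (-0.72) and miR-3472 (-0.66), each over 12 libraries.

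MYC, which activates miR-17-92, is known to repress another group of miRNAs, including let-7, miR-15/16, miR-26, miR-29 and miR-30 members. Of 28 names listed, 27 were on the panel and 24 were tested. The name without a probe was let-7h, which entered because the list was written as let-7a to let-7i. Averaged over treatments, 5 were called higher at 24 h: miR-29b at 1.25, miR-16 at 0.94, let-7e at 0.72, let-7d at 0.67 and miR-29c at 0.66. Of all tested probes 9.74% were called higher and 5.64% lower, and with housekeeping scaling 0 probes of any list were called higher. One, miR-26a, was called lower at -0.71. The median of the list was 0.29 on the log2 scale, beside 0.38 for the 8 cluster members and 0.04 for all probes. In insulin alone, miR-29c was called higher (0.76) and miR-26a lower (-0.91), and in vehicle alone 0 of the 24 were called by edgeR. Between insulin and vehicle, 0 of the 24 were called at 24 h and 0 at 4 h. Since let-7 sequences differ little, the values of let-7d and let-7e are uncertain.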

How the data were processed

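Total RNA of 12 cultures was measured on an nCounter mouse miRNA panel of 620 probes (566 mouse, 33 viral, 8 negative, 6 positive, 3 spike-in and 4 housekeeping). The deposited raw table was treated as an expected count table because its instrument lines, per the file headers, are not whole; all 7440 probe values were whole, so rounding changed nothing. The design had assumed plain counts. A processed signal was deposited by the authors too; it is each count multiplied by a lane factor, within 0.00805%, which matched the inverse geometric mean of the 100 highest mouse probes; the sources used here do not give its software.

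From the counts, edgeR 4.0.16 under R 4.3.3 fitted 4 groups together with TMM scaling (8 residual and 6.77 prior degrees of freedom); an SE is the absolute log2 change over the square root of F. The fit subtracted no background, which pulls low probes towards 0. Alternatives were 4 other scalings, 2 filters, DESeq2 1.42, limma 3.58.1 on the deposited signals and on background-subtracted counts, the replicate number as a block, and leaving out each library. The code was tested on simulated counts. Overlap, ratios and correlations are descriptions with no test.

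The 9 members, the lists and the rule for named miRNAs were chosen with earlier results of these data known. The rule took all members, panel probes of the clusters and seeds, the 5 probes most and 3 least correlated with the members, and called probes of the MYC-repressed list. Same-numbered samples had correlated deviations of -0.43 to 0.74 over 18 pairs, with 8 over 0.1. At 24 h all 3 insulin and vehicle pairs were over 0.1 (lowest 0.31), the cut-off used for pairing. Replicate 3 of insulin at 24 h correlated no better with its own number (0.306) than with replicate 2 of vehicle (0.309). Pairing by number is therefore uncertain at 24 h. At 4 h the lowest was -0.30. The labels call the repeats independent, and replicates are of 1 line. Counts of 71 to 285 for miR-18a carry a counting error of 5.92% to 11.9%, against 1.10% to 2.68% for miR-106a and miR-17.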

Additional observations from a re-analysis of the deposited data

Results flagged for a closer look

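Among probes outside the comparisons, 5 of the 33 viral miRNA probes lay above the negative control threshold in at least 3 of 12 libraries, the same filter that admitted the 8 tested members. The miR-18a counts, the closest to the threshold among tested members, reached 0.923 to 2.56 times it.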

How the results depend on the processing

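Between insulin and vehicle, and for the difference of those responses, 0 members and 0 probes were called under each alternative run. Counts of calls between the times moved. For 24 h against 4 h averaged over treatments, members called were 0 with housekeeping scaling, 1 with positive control scaling, 1 with no filter, 5 with a mean count of at least 100, and 2 to 5 leaving out 1 library; probes called were 17, 17 and 9 under the first 3 of these, 15 after background subtraction, and 12 to 52 leaving out 1 library, against 30. In insulin, members called were 2 with 100-probe scaling, the stricter filter, DESeq2, the replicate block or without the 2 smallest libraries (added after seeing the data), 0 with housekeeping or positive control scaling, no filter, limma on the deposited signals or background subtraction, and 0 to 2 leaving out 1 library. Probes called there were 2 with DESeq2 size factors, 15 with 100-probe scaling, 16 with housekeeping scaling, 2 with positive control scaling, 1 with no filter, 13 with the stricter filter, 21 with DESeq2, 0 with limma on signals, 0 after background subtraction, 18 with the replicate block, 38 without the 2 smallest libraries and 0 to 22 leaving out 1 library, against 7. In vehicle, 1 member was called with 100-probe scaling, the stricter filter, DESeq2 or the replicate block, and 0 to 2 leaving out 1 library; probes called were 9, 7, 15 and 10 in the same order, 1 with positive control scaling, and 0 to 12 leaving out 1 library, all of these 12 without replicate 3 of vehicle at 4 h.

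Some signs turned. With housekeeping scaling, which shifted the median of all probes by -0.39, -0.56, -0.37 and -0.18 in the order of the 4 comparisons that follow, insulin minus vehicle at 24 h was -0.16 for miR-106a and miR-17 and -0.21 for miR-19b; 24 h minus 4 h in insulin was -0.44 for miR-18a, -0.070 for miR-19a, -0.015 for miR-93 and -0.36 for miR-106b; averaged it was -0.084 for miR-18a, -0.30 for miR-19b and -0.053 for miR-106b; in vehicle it was -0.049 for miR-19b. For miR-19b it was also -0.00708, -0.023 and -0.00496 in vehicle with 100-probe and positive control scaling and limma on signals, and averaged -0.0033 with DESeq2 size factors, -0.0039 with DESeq2, -0.092 with 100-probe scaling, -0.095 with positive control scaling, -0.090 with the stricter filter, -0.079 with limma on signals and -0.12 without the 2 smallest libraries. In insulin, miR-18a was -0.00360 with the stricter filter and miR-106b -0.00609 with positive control scaling and -0.038 without the 2 smallest libraries. At 4 h, miR-20a and miR-20b stood at 0.050 with no filter. Leaving out 1 library, insulin minus vehicle at 4 h ranged over -0.019 to 0.42 for miR-106a and miR-17 and -0.089 to 0.045 for miR-20a and miR-20b; 24 h minus 4 h in insulin over -0.043 to 0.38 for miR-106b, -0.13 to 0.30 for miR-18a, -0.15 to 0.11 for miR-19b and -0.27 to 0.067 for miR-25; in vehicle over -0.051 to 0.21 and averaged over -0.093 to 0.11 for miR-19b. The cause was not tested. The replicate block at 24 h alone (added after seeing the data) left miR-20a and miR-20b at 0.47 with 0 calls; of 36 comparisons of a sample with another group, 14 correlated best with its own number. Values of miR-18a, close to background, and of miR-92a, at background, are uncertain.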

Other observations

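Seed relatives of miR-92a and miR-25 outside the 3 clusters were near background. Counts of miR-92b, which has the same seed at another locus, were 81 to 197 and above the threshold in 10 of 12 libraries, and its averaged difference of 24 h minus 4 h was -0.33 on the log2 scale (SE 0.21, adjusted p = 0.345 by edgeR). Counts of miR-367, a miRNA of pluripotent cells, were 36 to 116 and above the threshold in 4 of 12, with a difference of 0.19 (SE 0.19, adjusted p = 0.603 by edgeR). Counts of miR-32 were 29 to 83, and 0 of 12 libraries were above the threshold. In miR-106a-363, miR-18b (10 to 26 counts) and miR-363 (7 to 19 counts) were below the mean of the negative controls in 12 of 12 libraries each. Among the AUUGCAC probes, miR-25 was therefore the 1 above the threshold in all 12 libraries. When miR-92a was fitted with no filter, its averaged difference of 24 h minus 4 h was 0.25 (SE 0.21, adjusted p = 0.679 by edgeR).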
